A study of Mus musculus with 6 samples.

Results

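Scavenger receptors were described here through 9 genes: Msr1, Cd36, Marco, Scarb1, Scarb2, Cd68, Cd163, Stab1 and Olr1. They were found by symbol after the Ensembl gene IDs of the count table had been matched to Gencode M21, and they are 9 of the 54446 genes in that table. The libraries came from bone marrow-derived macrophages (BMDMs) of male BALB/c mice aged 6 to 8 weeks, grown for 7 days in 20% medium conditioned by L929 cells, a source of CSF-1. The cells were left unpolarized (M0), or polarized for 24 hours. M1 cells received LPS at 50 ng/mL together with IFN-γ at 20 ng/mL, and M2 cells received 20 ng/mL of IL4. In each state 1 sample received regorafenib (1 µM, from 1 hour before polarization), a multikinase inhibitor, and its control received the solvent DMSO. Each of the 6 conditions had 1 library, and the labels do not state whether the cultures came from separate mice. Therefore no comparison of a pair of libraries has a replicate check, and the 95% intervals below cover counting error only, with PCR copies counted as separate molecules.

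Scavenger receptors are surface or lysosomal proteins of macrophages that bind modified lipoproteins, bacteria, dying cells and haemoglobin complexes and carry them into the cell. They are grouped into classes by structure rather than by common descent. Class A receptors (Msr1 and Marco) carry collagen-like stalks, class B receptors (Cd36, Scarb1 and Scarb2) cross the membrane at both ends, and the others include the lysosomal mucin-like protein Cd68, the lectin-like receptor Olr1, the haemoglobin receptor Cd163 and the large endocytic receptor Stab1.

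The regions just upstream of 4 members are shown because the results turn on these genes. Marco and Olr1 had their highest levels in M1, and Cd36 and Stab1 were lower with regorafenib in M2. Each line gives the 250 bases before the RefSeq gene start on GRCm38.p6, read 5′ to 3′ on the minus strand, with matches to the searched motifs in capitals. The windows are chr1:120505025-120505274 for Marco, chr6:129507166-129507415 for Olr1, chr5:17835897-17836146 for Cd36 and chr14:31168642-31168891 for Stab1.
Marco: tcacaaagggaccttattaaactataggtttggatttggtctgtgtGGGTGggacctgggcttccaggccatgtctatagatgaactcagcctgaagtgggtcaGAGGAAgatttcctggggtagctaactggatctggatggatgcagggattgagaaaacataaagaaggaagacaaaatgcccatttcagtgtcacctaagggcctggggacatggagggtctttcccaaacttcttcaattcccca
Olr1: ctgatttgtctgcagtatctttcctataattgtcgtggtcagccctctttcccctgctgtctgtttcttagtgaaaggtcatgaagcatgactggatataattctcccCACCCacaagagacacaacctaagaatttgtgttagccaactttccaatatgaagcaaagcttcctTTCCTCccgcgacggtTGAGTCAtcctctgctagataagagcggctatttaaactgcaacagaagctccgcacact
Cd36: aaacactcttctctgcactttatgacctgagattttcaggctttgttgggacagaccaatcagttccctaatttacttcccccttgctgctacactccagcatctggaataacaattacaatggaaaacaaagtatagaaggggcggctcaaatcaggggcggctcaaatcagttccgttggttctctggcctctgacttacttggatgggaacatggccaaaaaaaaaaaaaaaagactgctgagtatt
Stab1: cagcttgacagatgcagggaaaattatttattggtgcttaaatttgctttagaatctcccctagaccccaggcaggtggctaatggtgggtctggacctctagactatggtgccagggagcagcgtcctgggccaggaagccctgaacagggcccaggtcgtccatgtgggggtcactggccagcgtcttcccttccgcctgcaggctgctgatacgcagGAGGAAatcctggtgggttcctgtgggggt
The RefSeq promoter table held 7 of the 9 members (all but Msr1 and Scarb1). The motifs were searched on both strands and were the cAMP response element (TGACGTCA), AP-1 (TGANTCA), PPAR/RXR, STAT6, the antioxidant response element (TGACNNNGC), PU.1 (GAGGAA), CLEAR and KLF (CACCC). PU.1 letters were found in 4 of the 7 windows (Marco, Cd68, Stab1 and Olr1) and in 23.3% of all 32851 promoters. Counted from the start, they lie at positions −146 to −141 in Marco, at −30 to −25 in Stab1 and, on the opposite strand, at −76 to −71 in Olr1. AP-1 letters were found in Cd68 and in Olr1, where they lie at positions −60 to −54, against 6.75% of all promoters. KLF letters, held by 52.0% of all promoters, were found in Marco, Cd68 and Olr1. Letters of the antioxidant response element, held by 10.2% of all promoters, were found in Scarb2, where all 250 bases of the window lie in annotated exons. The window of Cd36 held none of the 8 motifs, and Cd36 has further starts in Gencode outside this window.

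The libraries held between 25359309 and 34898342 counts each. The summed level of 6 macrophage markers was 19992 to 46945 CPM (counts-per-million, with library sizes scaled by TMM), with all 6 detected. Summed lymphocyte markers (5 genes) reached at most 0.107 CPM, with Cd3e, Ms4a1 and Cd8a at 0 counts in all 6 libraries, and summed dendritic cell markers (5 genes) lay between 0.212 and 4.52 CPM with Siglech at 0. Neutrophil markers (7 genes) summed to 84.8 to 158 CPM with Ly6g at 0, fibroblast markers (5 genes) to 3.19 to 10.2 CPM and endothelial markers (5 genes) to 10.2 to 38.3 CPM, and the part of these genes in the results was not tested. Summed M1 markers (Nos2, Il12b, Cxcl9, Il6 and Tnf) were 20203 and 15468 CPM in control and regorafenib M1 libraries and at most 67.6 CPM elsewhere. In these bulk samples, fewer cells with a gene and less RNA per cell cannot be told apart.

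The levels of the 9 receptors differed over several orders of magnitude. Per kilobase of gene model, Cd68 was the highest of the 9 in each library, at 1030 (control) and 1020 (regorafenib) CPM per kb in M0. The corresponding levels were 277 and 280 in M1, and 1277 and 1213 in M2. It held between 35.6% and 83.2% of the summed level of the 9 genes and ranked between place 19 and place 166 of all genes. This order depends on the length, taken as all annotated exons merged (1257 bases for Cd68 and 6344 for Msr1). In CPM, Msr1 was above Cd68 in control M0 (1847 against 1294), control M1 (1550 against 348) and regorafenib M1 (1322 against 352). Msr1 was between 71.4 and 291 CPM per kb and Cd36 between 28.5 and 396. Stab1 lay between 20.3 and 59.2 CPM per kb, Scarb2 between 20.6 and 44.5 and Scarb1 between 5.64 and 17.2. Marco stood at 151 and 147 CPM per kb in the M1 libraries and at 0.169 or below in the other 4. Cd163 had only 20 to 77 counts per library, and Olr1 5 to 139. Summed over the 9 genes, the level was 1495 CPM per kb in control M0, 778 in control M1 and 1971 in control M2, and 1255, 728 and 1459 with regorafenib.

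**Figure D1:**
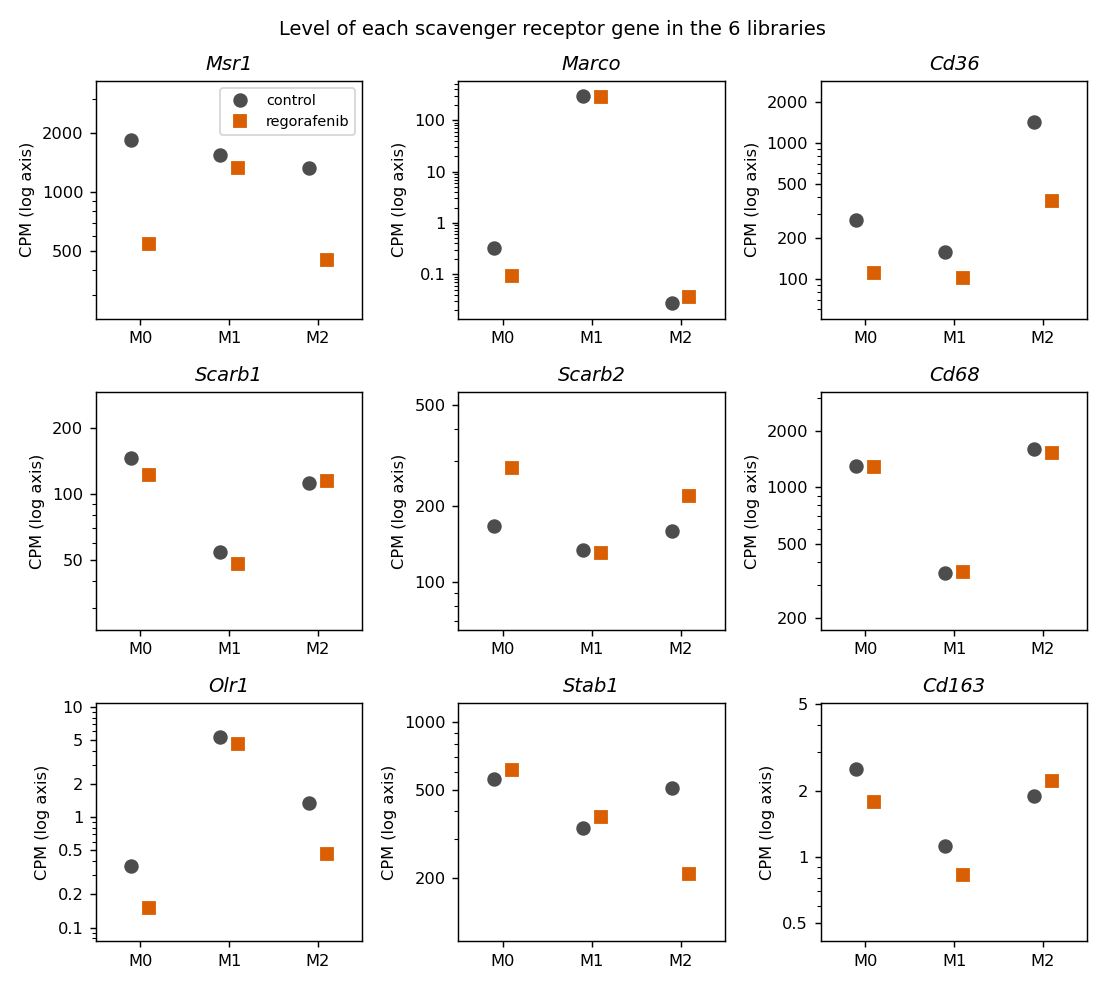
Levels of the 9 scavenger receptors in the 6 libraries, in TMM-scaled CPM on a log axis, with 1 point per library and no error bar for replicates. Marco separates the M1 libraries from the other 4, and Msr1 and Cd36 lie lower with regorafenib in M0 and M2.

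**Figure D2:**
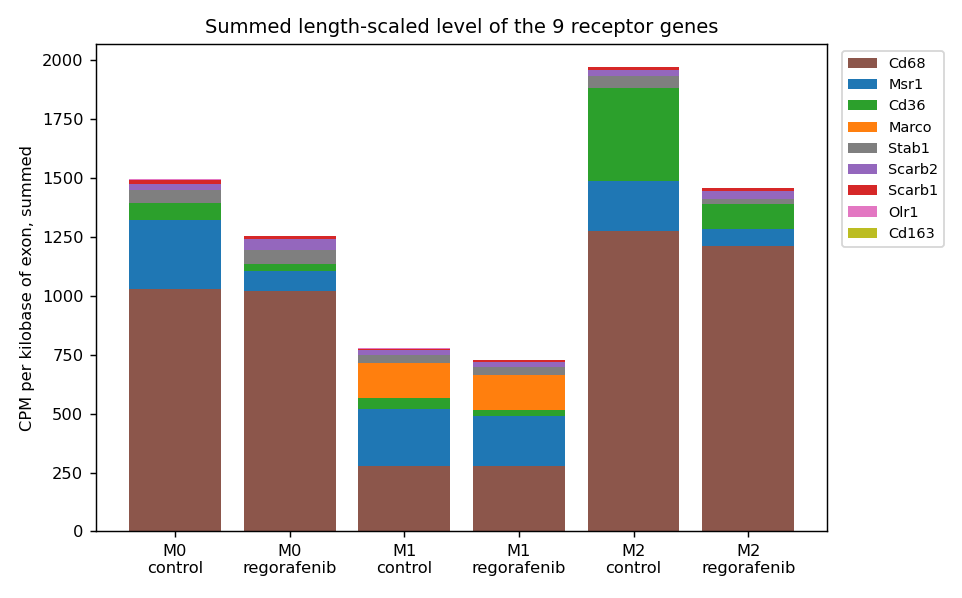
Summed level of the 9 genes in each library, in CPM per kb, divided by gene. Cd68 takes the largest part in each library, from 35.6% in control M1 to 83.2% in regorafenib M2.

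The comparison of regorafenib with its control within each state asked how receptor levels differed with the drug in each kind of macrophage. Msr1 and Cd36 were lower with regorafenib in all 3 states, by more than 2-fold in M0 and M2. Stab1 was more than 2-fold lower in M2 and close to its control in M0 and M1. Scarb2 was higher in M0 and M2, and Cd68 differed by less than 0.1 on the log2 scale in each state. In M0, 0 members were over 2-fold higher and 4 were over 2-fold lower (Msr1, Cd36, Marco and Olr1, the last 2 with 11 or fewer counts), where 9.22% of the 14917 genes tested were higher and 10.7% lower. In M1 no member passed 2-fold, against 2.09% of genes higher and 3.59% lower. In M2, 0 members were higher and 4 were lower (Msr1, Cd36, Stab1 and Olr1), against 6.59% and 4.97%. The low-count calls depend on how low values were treated. With 1 CPM added to both values, Marco (−0.28) and Olr1 (−0.24) were no longer past 2-fold in M0, nor was Olr1 in M2 (−0.68). The median log2 ratio was −0.49 over the 9 members in M0 (−0.01 over all genes), −0.18 over 9 in M1 (−0.02) and −0.68 over 8 in M2 (−0.01).

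Msr1 encodes the class A receptor for acetylated and oxidized LDL (chr8:39581685-39642673, ENSMUSG00000025044.16). It had 56750 counts in control M0 and 17878 with regorafenib, 40059 and 31866 in M1, and 48460 and 12665 in M2. In CPM these are 1847 and 542, 1550 and 1322, and 1327 and 453, so that the 2 lowest libraries of the 6 were the regorafenib libraries of M0 and M2. Relative to control, regorafenib gave a log2 ratio of −1.77 in M0 (95% interval −1.79 to −1.74), −0.23 in M1 (−0.25 to −0.21) and −1.55 in M2 (−1.58 to −1.52). Msr1 was therefore 3.41-fold lower in M0 and 2.93-fold lower in M2.

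Marco is the other class A receptor, which binds bacteria and inhaled particles (chr1:120474538-120505024, ENSMUSG00000026390.7). It had 10 counts in control M0 and 3 with regorafenib, 7506 and 6827 in M1, and 1 and 1 in M2. Its log2 ratio of regorafenib to control was −0.04 in M1 (−0.08 to 0.01) and −1.84 in M0, with an interval from −4.34 to 0.12 that includes 0. No ratio is given in M2, where both libraries had under 3 counts.

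Cd36 is the class B receptor that takes up oxidized LDL and long-chain fatty acids (chr5:17781690-17888801, ENSMUSG00000002944.15). In M0 it had 8331 counts in control cells and 3659 with regorafenib. In M1 it had 4090 and 2467, and in M2 51853 and 10537. Control M2 stood apart from the other 5 libraries, at 1420 CPM against 102 to 377. Its log2 ratio in regorafenib against control cells was −1.29 in M0 (−1.35 to −1.23), −0.63 in M1 (−0.70 to −0.56) and −1.91 in M2 (−1.95 to −1.88), or 2.44-fold, 1.55-fold and 3.77-fold lower. Regorafenib M2 was still above both M0 libraries.

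Scarb1, the HDL receptor, and Scarb2, which carries β-glucocerebrosidase to the lysosome and sits in its membrane, did not follow Cd36. Scarb1 (chr5:125277087-125341094, ENSMUSG00000037936.15) had 4481 (control) and 4043 (regorafenib) counts in M0, against 1406 and 1155 in M1 and, for M2, 4083 and 3210, with log2 ratios of −0.25, −0.18 and 0.04. Scarb2 (chr5:92441314-92506833, ENSMUSG00000029426.8) had 5094 (control) and 9229 (regorafenib) counts in M0, against 3446 and 3119 in M1 and, for M2, 5812 and 6112. Its log2 ratio was 0.76 in M0 (0.71 to 0.81), −0.04 in M1 (−0.11 to 0.03) and 0.46 in M2 (0.40 to 0.51), so that it was 1.69-fold and 1.37-fold higher in M0 and M2. Among class B receptors, Cd36 and Scarb2 thus lay on opposite sides of their controls in M0 and in M2.

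Cd68, a heavily glycosylated protein of late endosomes and lysosomes (chr11:69664213-69666153, ENSMUSG00000018774.13), had 39757 (control) and 42262 (regorafenib) counts in M0, against 8988 and 8472 in M1 and, for M2, 58624 and 42668. Its log2 ratios of regorafenib to control were −0.01 (−0.03 to 0.01), 0.02 (−0.03 to 0.06) and −0.07 (−0.09 to −0.06). The M1 libraries were the lowest with either treatment.

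Stab1, which clears acetylated LDL, SPARC and dying cells (chr14:31139013-31168641, ENSMUSG00000042286.13), had 17093 (control) and 20085 (regorafenib) counts in M0, against 8700 and 9036 in M1 and, for M2, 18631 and 5852. Its log2 ratio was 0.13 in M0 (0.10 to 0.16), 0.16 in M1 (0.11 to 0.20) and −1.29 in M2 (−1.33 to −1.24), which is 2.44-fold lower. Regorafenib M2 was the lowest of the 6 libraries for this gene, at 209 CPM against 337 to 609. Stab1 shares 112 exonic bases (1.09% of its exons) with Nt5dc2 on the opposite strand, and the libraries came from a stranded kit, but the strand setting of the counting is not given in the sources used here. Nt5dc2 had 4377 (control) and 3432 (regorafenib) counts in M0, against 711 and 743 in M1 and, for M2, 3558 and 1348. No other member shares exonic bases with another gene.

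Cd163, the receptor for haptoglobin-haemoglobin complexes (chr6:124304656-124330527, ENSMUSG00000008845.9), was near the lower limit of the data. It had 77 (control) and 59 (regorafenib) counts in M0, against 29 and 20 in M1 and, for M2, 69 and 62, and its intervals for regorafenib against control reached from −1.0004 to 0.02, from −1.33 to 0.44 and from −0.29 to 0.75. A difference was not detectable at this depth in any state. Olr1, the lectin-like receptor LOX-1 for oxidized LDL (chr6:129485244-129507165, ENSMUSG00000030162.14), had 11 (control) and 5 (regorafenib) counts in M0, against 139 and 110 in M1 and, for M2, 49 and 13. Its log2 ratio was −1.53 in M2 (−2.54 to −0.63), or 2.89-fold lower, and its intervals in M0 (−3.12 to 0.40) and M1 (−0.61 to 0.13) included 0.

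**Figure D3:**
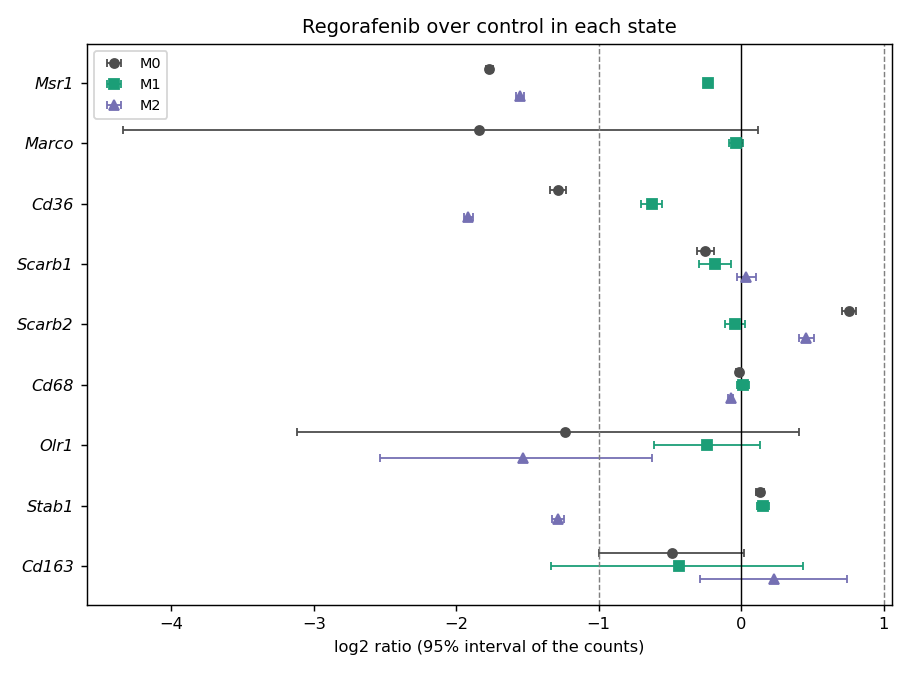
Log2 ratio of regorafenib to control for each member in M0, M1 and M2, with 95% counting intervals as bars. Msr1 and Cd36 lie below 0 in all 3 states, Stab1 only in M2, and Cd68 lies within 0.1 of 0 in each.

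**Figure D4:**
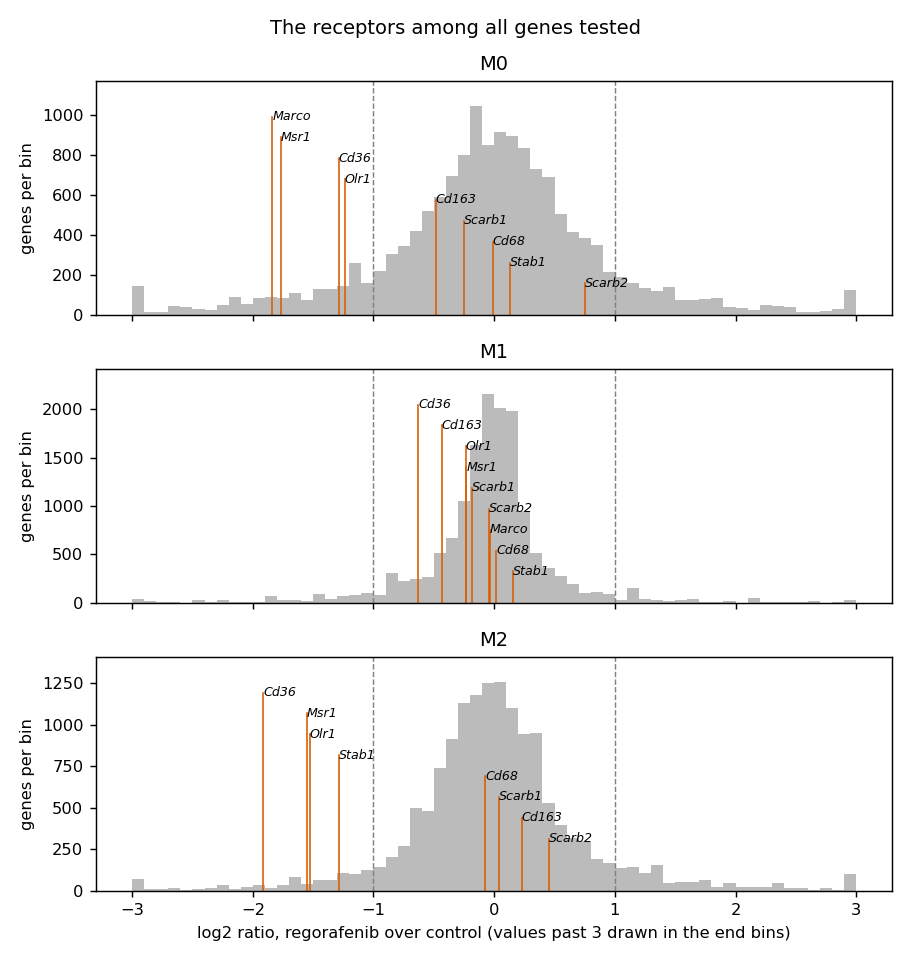
Distribution of the log2 ratio of regorafenib to control over the 14917 genes tested in each state, with values beyond 3 in either direction placed in the end bins and the members marked. Most genes lie near 0, and Msr1 and Cd36 lie below −1 in M0 and M2.

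Regorafenib was also tested over the 3 states in 1 model, with the state as a term (edgeR's quasi-likelihood test, 2 residual degrees of freedom). At an adjusted p of 0.05 this called 0 of 14110 genes (0% higher and 0% lower, Benjamini-Hochberg adjustment), while 1637 genes had an unadjusted p under 0.05 and DESeq2 called 296 (0.545% of its genes higher and 0.642% lower). No member was called. Cd36 had the smallest p of the 9, with a log2 change of −1.26 ± 0.26 (SE, adjusted p = 0.316), lower in 3 of 3 states. Msr1 followed with −1.18 ± 0.33 (adjusted p = 0.365), also lower in 3 of 3. DESeq2 gave adjusted p-values of 0.00171 for Cd36 and 0.0213 for Msr1, and over the 7 alternatives these ranged from 0.00171 to 1.0 and from 0.0213 to 1.0. Without the filter on low counts, edgeR gave 0.01 for Cd36 and 0.0258 for Msr1, in a fit that called 0.622% of genes higher and 0.714% lower. Without the M1 libraries, it called both, with an adjusted p of 0.0483 for Cd36 and 0.0401 for Msr1, in a fit that called 1.65% of genes higher and 1.20% lower. Without the M0 libraries the adjusted p was 0.508 for Cd36 and 0.864 for Msr1, and without the M2 libraries it was 0.493 and 0.767. Adjusted p in the edgeR fit was 0.439 for Olr1, 0.448 for Scarb2 and 0.648 or above for the other 5 members. This model fits 1 response for all states, and the differences between states in the ratios of Msr1, Scarb2 and Stab1 were not tested.

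The polarized states were then compared with M0 within each treatment. In control cells, M1 had 2 members over 2-fold higher than M0 (Marco and Olr1) and 3 over 2-fold lower (Scarb1, Cd68 and Cd163), where 17.1% of genes were higher and 19.1% lower. M2 had 2 higher (Cd36 and Olr1) and 1 lower (Marco, with 1 count in M2, at −3.57 with an interval from −9.01 to −0.76), against 4.46% and 7.68%. With regorafenib, M1 had 3 higher (Msr1, Marco and Olr1) and 4 lower (Scarb1, Scarb2, Cd68 and Cd163), against 16.5% and 20.7%, and M2 had 2 higher (Cd36 and Olr1) and 1 lower (Stab1), against 4.69% and 5.02%. The comparisons within a treatment share their M0 library. With 1 CPM added to both values, Cd163 was no longer past 2-fold in M1 (−0.72 in control cells and −0.61 with regorafenib), nor was Olr1 in M2 (0.79 and 0.35) or Marco in control M2 (−0.37). The split depends on the scaling in M1. Of all genes past 2-fold against M0, 47.2% were higher in control M1 and 44.4% in regorafenib M1 with TMM, and 30.1% and 28.4% with total counts, where 2 members were higher and 5 lower in each. As shares of all genes tested, total counts gave 12.3% higher and 28.7% lower in control M1, and 11.9% and 30.0% in regorafenib M1.

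Marco was 892-fold higher in control M1 than in control M0 (log2 ratio 9.80, 8.92 to 10.86). With regorafenib its log2 ratio was 11.60 (10.06 to 13.88), resting on 3 counts in M0. Olr1 was 15.0-fold higher in control M1 (3.91, 3.03 to 4.94), over 11 counts in M0. With 1 CPM added, the log2 ratios in control M1 were 7.78 for Marco and 2.23 for Olr1. Across both treatments, edgeR's quasi-likelihood test with Benjamini-Hochberg adjustment called 18.5% of genes higher in M1 and 18.2% lower, and 4 of the 9 members. Marco rose by 10.50 ± 0.40 on the log2 scale (SE, adjusted p = 0.000225) and Olr1 by 4.42 ± 0.49 (adjusted p = 0.00201), each in 2 of 2 treatments. Marco was at 11.60 without the control M0 library, 9.83 without the regorafenib M0 library and 11.33 without the control M1 library. Olr1 was at 5.06 without the control M1 library and 3.88 without the regorafenib M1 library. Cd68 fell by 1.82 ± 0.19 on the log2 scale (adjusted p = 0.00175) and Scarb1 by 1.33 ± 0.16 (adjusted p = 0.00261), also in 2 of 2. These 4 calls held under all 8 alternatives. The fall of Cd68 corresponds to 3.72-fold lower CPM in the control libraries, and that of Scarb1 to 2.68-fold.

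The remaining 5 members were not called in M1. Cd163 was at −1.07 ± 0.37 (adjusted p = 0.0678) and Scarb2 at −0.65 ± 0.23 (adjusted p = 0.0726). Both were called by edgeR without the filter on low counts (adjusted p = 0.0449 for Cd163, in a range of 0.0449 to 0.301 over the 8 alternatives, and 0.0302 for Scarb2). Scarb2 also passed without the control M0 library (adjusted p = 0.0438) or the control M1 library (0.0161), in a range of 0.0161 to 0.358 over the 8 alternatives. Stab1 was at −0.65 (adjusted p = 0.229). For Cd36 the adjusted p was 0.419. Msr1 was at 0.62 (adjusted p = 0.276), with single ratios on opposite sides of 0. Its log2 ratio of M1 to M0 was −0.25 in control cells and 1.29 with regorafenib (1.26 to 1.31, 2.44-fold higher). With total counts in place of TMM these ratios were −0.69 and 0.87. The estimate was 1.29 without the control M1 library (adjusted p = 0.0104), 1.05 without control M0, 0.17 without regorafenib M0 and −0.14 without regorafenib M1, where it turned direction. Over the 8 alternatives its adjusted p ranged from 0.0104 to 0.829.

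**Figure D5:**
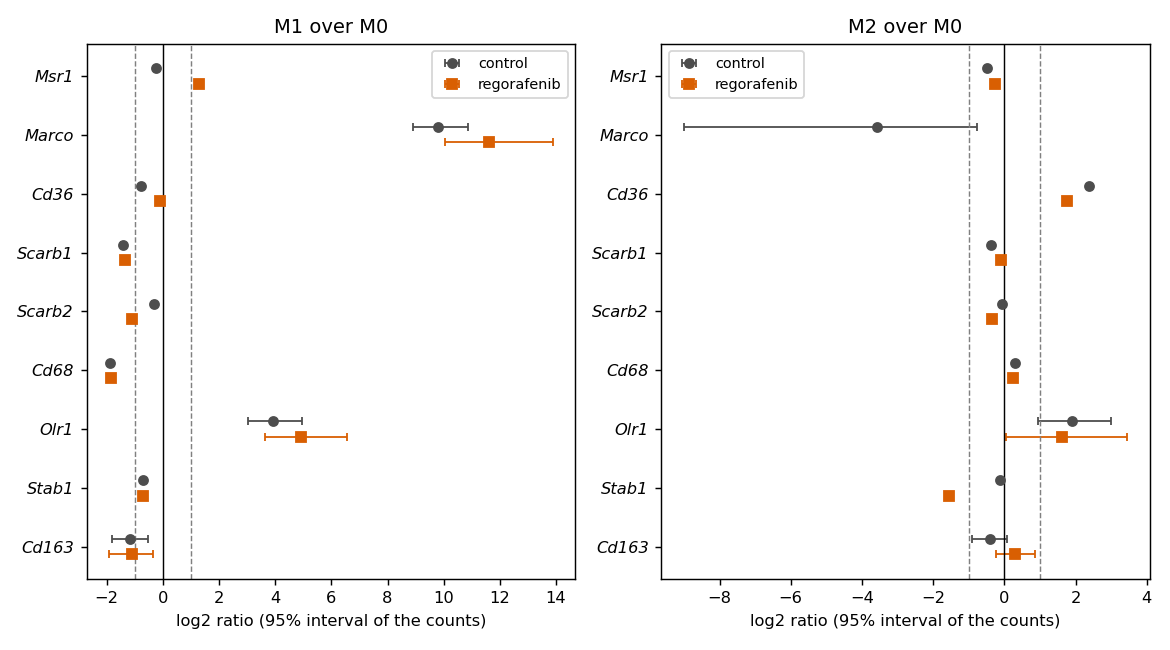
Log2 ratio of M1 and of M2 to M0 for each member, in control and in regorafenib libraries, with 95% counting intervals as bars. Marco and Olr1 lie above 0 in M1 with either treatment, Cd36 lies above 0 in M2, and Msr1 lies on opposite sides of 0 in M1 with and without the drug.

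In M2, Cd36 was the member with the largest ratio among those with at least 100 counts. It was 5.24-fold higher than M0 in control cells (log2 ratio 2.39, 2.36 to 2.42) and 3.39-fold higher with regorafenib (1.76, 1.71 to 1.82). Over both treatments its log2 change was 2.12 ± 0.32 (SE, n = 2 treatments), and the adjusted p was 0.0846 by edgeR's quasi-likelihood test, which called 0.184% of genes higher and 0.0142% lower. DESeq2 gave an adjusted p of 2.85e-07, and the 8 alternatives ranged from 2.85e-07 to 0.562. The value was 0.0395 without the regorafenib M0 library and 0.0114 without the regorafenib M2 library. No member was called in M2 by the main test, where all members but Cd36 had an adjusted p of 0.314 or above. Olr1 was 3.75-fold higher in control M2 (1.91, 0.94 to 2.999). Stab1 was at −0.12 in control cells and at −1.54 with regorafenib (−1.58 to −1.50, 2.91-fold lower).

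Set directly against each other in control cells, M1 had 2 members over 2-fold higher than M2 (Marco and Olr1) and 3 lower (Cd36, Scarb1 and Cd68), where 18.0% of genes were higher and 19.2% lower. With total counts, 2 members were higher and 4 lower (13.9% and 27.4% of all genes), and 33.7% of the genes past 2-fold were higher, against 48.3% with TMM. With DESeq2 size factors, 2 were higher and 2 lower (18.8% and 18.4% of all genes), since Scarb1 moved from −1.04 to −0.98, and 50.6% of the genes past 2-fold were higher. Cd36 was 8.97-fold lower in M1 and Cd68 4.62-fold lower. Msr1 had a log2 ratio of 0.22, which was −0.13 when libraries were scaled by total counts, so its direction depends on the scaling.

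Over the 6 libraries, the members did not follow a common pattern. Pearson's r of log2(CPM + 1), given as a description over 6 libraries that include 3 states, was 0.94 between Marco and Olr1, 0.95 between Scarb1 and Cd68, −0.99 between Marco and Cd68 and 0.09 between Msr1 and Cd36. The genes most like Msr1 were Fitm2 (r = 0.995) and Mipep (0.992), those most like Cd36 were Serpinb1a (0.997) and Snx1 (0.992), and those most like Marco were Gbp10 (0.9998) and Il1b (0.9996). For Cd68 they were Lrmp (0.998) and Rpl10a (0.998), and for Scarb2 Trpm7 (0.999) and Csnk1e (0.997). Olr1 was nearest to Atad1 (0.997) and Crem (0.996), and Scarb1 to Dpy19l1 and Blvra (0.998). The closest genes to Stab1 had a lower r, with Gtpbp3 at 0.947 and Wasf2 at 0.942.

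Of 22 other receptors with scavenging functions, 14 were tested. With regorafenib 3 were over 2-fold higher and 4 lower in M0 (9.22% and 10.7% of all genes). M1 had 1 higher and 3 lower (2.09% and 3.59%), and M2 had 3 higher and 1 lower (6.59% and 4.97%). Several of these had few counts. Among the 9 that reached 100 counts in either library of a pair, 1 was higher and 3 were lower in M0, 0 higher and 1 lower in M1, and 1 higher and 1 lower in M2. The shares of all genes include genes with fewer counts. No share was taken over genes with at least 100 counts, so these smaller counts have no like background. Clec7a, the β-glucan receptor dectin-1, had 273 counts in control M0 and 1333 with regorafenib (log2 ratio 2.19), and was at −0.30 in M1 and 0.77 in M2. Cd14, the LPS co-receptor, had 31650 and 16464 counts in M0 (−1.04), and was at 0.10 in M1 and −0.43 in M2. Lrp1, a large endocytic receptor of the LDL receptor family, was at −1.02 in M0, −0.50 in M1 and −1.07 in M2. Cxcl16, a chemokine that also binds oxidized LDL, was at 0.83 in M0, 0.18 in M1 and 1.35 in M2. In control M2 against M0, 4 were higher and 4 lower (4.46% and 7.68% of all genes), and 2 and 2 of the 9 with at least 100 counts.

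Of 15 genes tested for the fate of scavenged lipid, 2 were over 2-fold higher and 1 lower with regorafenib in M0 (9.22% and 10.7% of all genes), none passed 2-fold in M1 (2.09% and 3.59%), and M2 had 2 higher and 0 lower (6.59% and 4.97%). Apoe, which carries cholesterol out of macrophages, had 1184 counts in control M0 and 41460 with regorafenib (log2 ratio 5.03), 1018 and 7659 in M2 (3.30), and 617 and 613 in M1 (0.09). Abca1, the cholesterol exporter, was at 2.19 in M0, −0.48 in M1 and 2.47 in M2. Lpl, the lipase that frees fatty acids from lipoproteins, was at −1.92 in M0 and −0.76 in M2 and, on the other side of its control, at 0.68 in M1. In control M1 against M0, 2 of the 15 were higher and 6 lower (17.1% and 19.1% of all genes). The edgeR quasi-likelihood test over both treatments called 2 that rose and 7 that fell, and it called 18.5% of all genes higher and 18.2% lower.

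Of 17 known regulators of scavenger receptor genes, 2 were over 2-fold higher and 1 lower with regorafenib in M0 (9.22% and 10.7% of all genes), none passed 2-fold in M1 (2.09% and 3.59%), and M2 had 0 higher and 2 lower (6.59% and 4.97%). Ets2, a transcription factor activated by ERK, had 5416 counts in control M0 and 1146 with regorafenib (−2.34) and 2774 and 772 in M2 (−1.46), and was at −0.59 in M1. Rxra had the highest log2 ratio of the 17 in M0, at 1.16 (1377 counts in control and 3313 with regorafenib). It stood at 0.69 in M2 and at −0.35 in M1. Over the 17 genes, M0 had a median log2 ratio of 0.17, M1 of −0.14 and M2 of −0.11. Klf4 was at −0.74 in M0, −0.70 in M1 and −1.12 in M2. Pparg, the nuclear receptor that acts on Cd36, was at −0.55 in M0 and −0.10 in M2 with regorafenib, had 8 or fewer counts in M1, and stood at −6.56 in control M1 against M0. Of 14 lysosomal partners of Cd68 and Scarb2, 2 were higher and 0 lower in M0 (Psap at 1.14 and Hexa at 1.004), against 9.22% and 10.7% of all genes. None passed 2-fold with the drug in M1 (2.09% and 3.59% of all genes) or M2 (6.59% and 4.97%). Of 11 genes of haemoglobin and iron handling, 2 were higher and 0 lower with regorafenib in M0 (9.22% and 10.7% of all genes). M1 had 0 higher and 1 lower (2.09% and 3.59% of all genes), and M2 had 3 higher and 1 lower (6.59% and 4.97%). Of those in M2, 1 and 1 had at least 100 counts. Slc40a1, the iron exporter ferroportin, was at 2.81 in M0, −0.52 in M1 and 1.82 in M2. Hmox1, which degrades haem, was at −0.83 in M0, −0.76 in M1 and −1.30 in M2.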

How the data were processed

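The authors deposited raw counts per gene for 6 libraries. By the study's methods, reads were trimmed and mapped, and STAR counted them against the Gencode M19 genes. The submitters' processing notes name cutadapt 2.4, STAR 2.7.2a and GRCm38. The strand setting is not given in the sources used here. Names, gene lengths and positions came from Gencode M21, which matched all but 37 of the 54446 gene IDs (1180 of them only without the version). Promoters came from RefSeq (GRCm38.p6).

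The deposited counts were scaled with TMM in edgeR 4.0.16 (R 4.3.3), with factors from 0.820 to 1.12. Genes with at least 10 counts in 1 library entered the ratios (14917). The 95% interval of a ratio is the exact binomial interval of the counts. A gene was counted past 2-fold after counts under 3 had been set to 3. For the 3 tests over several libraries, edgeR's quasi-likelihood test (state and treatment as terms, Benjamini-Hochberg adjustment) was used, and DESeq2 1.42.0 was an alternative. The SE given with a log2 change was derived from that test, as the absolute log2 change divided by the square root of its F statistic. Python 3.11.15, numpy 2.4.6, pandas 2.3.3 and scipy 1.17.1 were used for the rest. Only the regorafenib fit was run on simulated data, with the same drug change in each state. That setting differs from these data, where the residual holds differences between states in their response. The NOISeq test of the study was not used, since it simulates replicates. A comparison of the receptors' proteins was not run here.

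The text names the 9 members, up to 4 genes per list (from those with the highest and lowest ratios and at least 100 counts) and the 2 genes most like each member with at least 100 counts in 1 library, which leaves out Cd163. Members and lists were chosen with earlier results of these data known. Some values of listed genes in further states, Cd14, Lrp1, Klf4 and Pparg among them, were added after the values had been seen. The M2 marker list is not reported here.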

Additional observations from a re-analysis of the deposited data

Results flagged for a closer look

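Stab1 lay on opposite sides of its control in different states. Its log2 ratio of regorafenib to control was 0.13 in M0 and 0.16 in M1, and −1.29 in M2. Msr1 lay on opposite sides of M0 in M1, with a log2 ratio of M1 to M0 of −0.25 in control cells and 1.29 with regorafenib. With total counts in place of TMM these Msr1 ratios were −0.69 and 0.87. They rest on the same libraries as its ratios of regorafenib to control in M0 and M1, so they are not a separate observation. Each of these values compares 1 library with 1 library, so neither difference was tested.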

How the results depend on the processing

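The counts of members past 2-fold and of genes called were recomputed under 63 alternatives, of which 50 stayed within 1.5 times the main count. With 1 CPM added, members over 2-fold lower with regorafenib in M0 numbered 2 (6.31% of all genes), and those past 2-fold in control M2 against M0 numbered 1, which was higher (1.88% of all genes). At a fold of 1.5, 1 member (Cd36) passed with regorafenib in M1, where 5.75% of genes were higher and 8.95% lower at that fold. For regorafenib over the 3 states, the count of 0 genes became 296 with DESeq2 and 333 without the filter on low counts. It lay between 0 and 386 when the libraries of 1 state were left out, and 386 was the count without M1. For M2 against M0, the count of 28 became 413 with DESeq2, 408 without the filter and 0 without the treatment term, and leaving out 1 library gave 77 to 294. The cause of these shifts was not tested. For M1 against M0 no alternative moved the count by over 1.5 times.

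Total counts in place of TMM moved the median log2 ratio of all genes in control M1 against M0 to −0.49. Of 210 single ratios under another scaling or added count, 3 changed sign (Marco with regorafenib in M1, Cd68 with regorafenib in M2, and Msr1 in M1 against M2), each under total counts. Depth limits Cd163 and Olr1, and Marco outside M1. The labels carry no replicate numbers, and the regorafenib fit pairs each library with the control of its state. Without state as a block it called 0 genes for regorafenib, with 218 at an unadjusted p under 0.05.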
